A study of Ovis aries with 16 samples.

Results

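The 6 transcripts described here encode ND1, ND2, ND3, ND4, ND5 and ND6, subunits of respiratory complex I that are carried by the mitochondrial genome. They were taken by their identifiers, as the study pairs them with names, from a table of 35219 sheep transcripts. The identifiers are ENSOART00020000007 (ND1), ENSOART00020000011 (ND2), ENSOART00020000025 (ND3), ENSOART00020000027 (ND4), ENSOART00020000031 (ND5) and ENSOART00020000032 (ND6). All 6 were measured in every library and passed the filter on low values. The remaining mitochondrial subunit, ND4L, was not analysed here.

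The RNA came from perirenal adipose tissue of near-term fetuses carried as singletons by crossbred Columbia-Rambouillet ewes. There were 16 libraries, 1 per fetus and 4 per group. Growth-restricted male (MFGR) and female (FFGR) fetuses came from ewes kept in hot ambient air for part of pregnancy, which restricts the placenta. Control male (MC) and female (FC) fetuses came from ewes kept at a moderate temperature and pair-fed to the heated ewes. The model acts through the ewe and placenta, so heat, placental insufficiency and reduced growth of the fetus cannot be told apart.

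Complex I takes electrons from NADH, passes them to ubiquinone and pumps protons across the inner mitochondrial membrane. Its mitochondrially encoded subunits form the core of the membrane arm, while the other subunits are encoded in the nucleus and imported. ND2, ND4 and ND5 resemble antiporters and hold the proton channels. ND1, ND3 and ND6 lie near the junction with the peripheral arm, where ubiquinone is reduced. In brown fat, which is abundant around the kidneys of the newborn lamb, the uncoupling protein UCP1 lets the protons back in and releases heat. Mitochondrial DNA is transcribed from both strands into long precursors that are cut into single messages. ND6 is the only protein-coding gene read from the light strand, and it is the neighbour of ND5 in the RefSeq annotation of the sheep assembly ARS-UI_Ramb_v3.0.

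The values are TPM, a level scaled by transcript length and to a sum of 1000000 in each library. Because of the scaling by length, levels of different genes are set side by side here, but how well it holds for each subunit was not tested. TPM keeps no read counts, so the depth of the libraries is unknown. Each library listed between 20153 and 21917 transcripts above 0. The tissue label was checked on adipocyte markers. ADIPOQ, which encodes adiponectin, lay between 1741 and 3293 TPM, FABP4, a fatty acid carrier of mature adipocytes, between 1416 and 10369 TPM, and UCP1 between 1317 and 4430 TPM in the 16 libraries. Markers of other tissues were not analysed here.

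The complex I subunits were among the most abundant transcripts of this tissue. In males their summed TPM made up 12.6% ± 1.10 of an MC library and 10.6% ± 1.72 of an MFGR library (SD, n = 4). In females it made up 9.83% ± 1.61 of an FC library and 9.68% ± 1.46 of an FFGR library (SD, n = 4). In every library ND1, ND2, ND3 and ND4 stood among the 11 highest of the 35219 transcripts, and ND5 stood between rank 11 and rank 19. ND6 stood between rank 13 and rank 30 in males but between rank 167 and rank 368 in females. In bulk tissue, fewer cells of a type and less RNA per cell cannot be told apart.

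The order of the levels was not the same in males and females. In MC the mean TPM fell in the order ND4, ND1, ND3, ND2, ND5 and ND6. In MFGR ND1 came before ND4, but ND1 was the higher of the pair in only 1 of 4 fetuses. In both FC and FFGR the order was ND1, ND2, ND4, ND3, ND5 and ND6. In males the ranges of ND1, ND4, ND3 and ND2 overlapped from neighbour to neighbour, and a gap without overlap lay between ND2 and ND5. In females the gaps without overlap lay between ND4 and ND3 and between ND5 and ND6, while ND1 and ND2 overlapped. ND5 was above ND6 in 4 of 4 fetuses in each of the 4 groups.

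**Figure D1:**
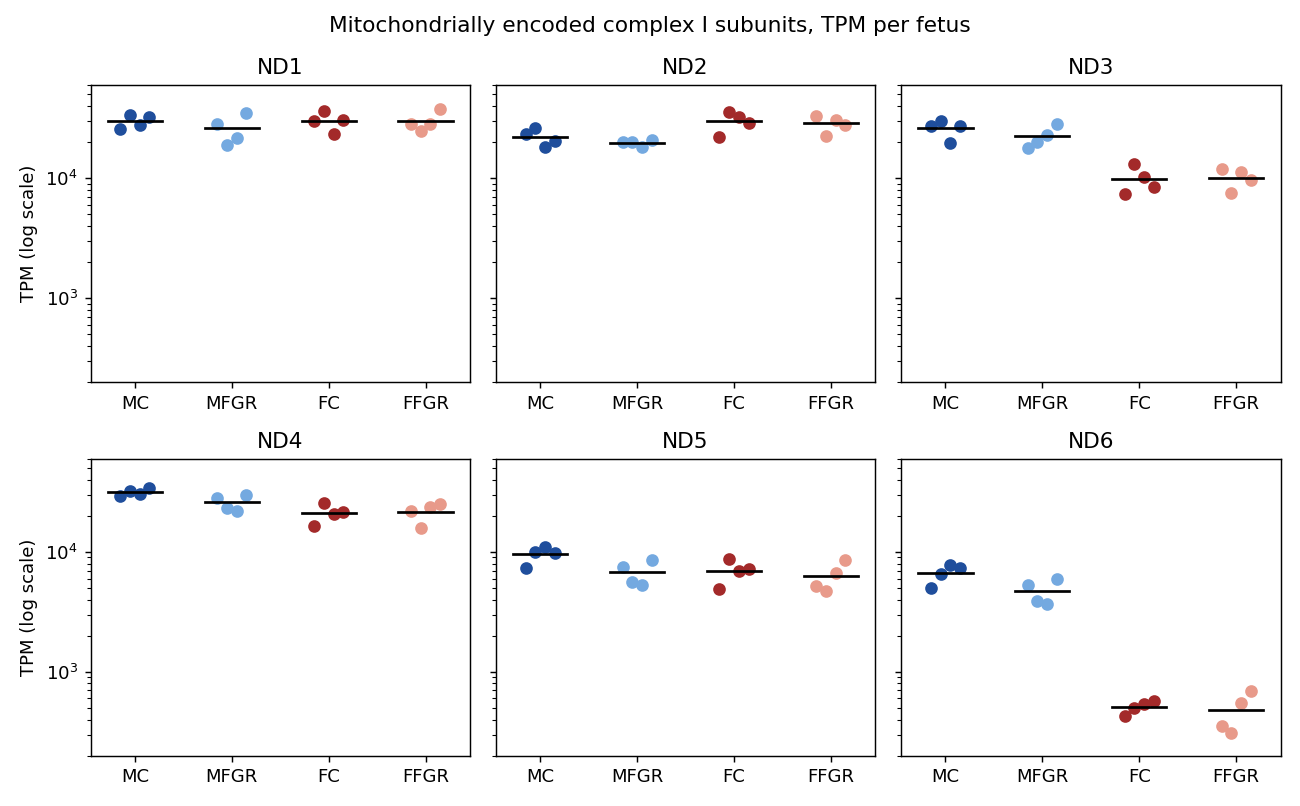
TPM of each subunit (log scale) in the 16 fetuses, by group, with each point 1 fetus and each bar the mean of 4. ND6 lies between 3707 and 7727 TPM in males and between 308 and 693 TPM in females, and ND3 also lies apart by sex.

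Levels were compared between groups as log2(TPM + 1) in limma. The fit covered 4574 transcripts that reached 20 TPM in 3 or more libraries. A call needed an adjusted p (Benjamini-Hochberg) under 0.05 together with a fold of over 1.5, and a transcript is said to have passed where the adjusted p alone was met. These are the thresholds of the study. The question of the male to female comparison was whether the sex of the fetus changes gene expression in this depot. Between MC and FC 3 of the 6 subunits were called, all higher in MC, where 28.8% of all tested transcripts were called, 6.23% higher and 22.6% lower. The same 3 separated the 4 MC from the 4 FC fetuses without overlap, as 37.1% of all tested transcripts did, 9.01% with MC higher and 28.1% with MC lower. Between MFGR and FFGR 2 of the 6 were called, both higher in MFGR, where 30.1% were called, 6.49% higher and 23.6% lower. Without overlap lay 3 of the 6, ND3 and ND6 with MFGR higher and ND2 with MFGR lower, while 42.3% of all tested transcripts did so, 10.7% with MFGR higher and 31.6% with MFGR lower. The median log2 fold change of the 6 was 0.54 in MC against FC and 0.20 in MFGR against FFGR. Over all 4574 transcripts it was -0.20 and -0.19. Median-of-ratios scaling, which brings the median of all transcripts to -0.0095 in MC against FC, moved the calls over all transcripts from 285 higher and 1033 lower to 553 higher and 704 lower. Between MFGR and FFGR it moved them from 297 higher and 1079 lower to 571 higher and 783 lower. Quantile normalization gave 726 higher and 583 lower between MC and FC and 721 higher and 639 lower between MFGR and FFGR. The comparisons of MC with FC and of MFGR with FFGR share no library, but the spread was estimated from all 16.

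ND6 showed the widest gap between the sexes. Its 4 MC values were 5027, 6599, 7727 and 7407 TPM, and its 4 MFGR values were 5256, 3903, 3707 and 6003 TPM. In FC it was 424, 497, 542 and 568 TPM, and in FFGR 352, 308, 554 and 693 TPM. The lowest male value was thus far above the highest female value, and the groups of different sex did not overlap. ND6 rose 13.1-fold in MC against FC (log2 fold change 3.71 ± 0.24 SE, limma adjusted p = 9.22e-09), which placed it at rank 22 of 4574 by fold. In MFGR against FFGR it was 10.2-fold higher (3.35 ± 0.24 SE, limma adjusted p = 2.99e-08). Whether the quantification used the strand of the reads is not given in the sources used here. Reads of ND6 and reads of other RNA from the same stretch on the opposite strand therefore cannot be told apart, and their part in the result was not tested. The study states that samples were pooled in equal molar amounts for sequencing. Whether male and female libraries were prepared and quantified together is not given. If they were handled apart at those steps, sex and handling cannot be told apart.

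ND3, which lines the ubiquinone site through a flexible loop, also differed by sex. Its levels were 27377, 29824, 19681 and 27483 TPM in MC and 17997, 20022, 23021 and 28390 TPM in MFGR. They were 7332, 13113, 10258 and 8411 TPM in FC and 11840, 7459, 11185 and 9598 TPM in FFGR. Every male fetus was above every female fetus. ND3 rose 2.70-fold in MC against FC (log2 fold change 1.43 ± 0.21 SE, limma adjusted p = 6.32e-05) and 2.23-fold in MFGR against FFGR (1.16 ± 0.21 SE, adjusted p = 0.000376).

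ND1, which forms most of the ubiquinone channel, differed from ND3 and ND6 although it lies in the same region of the complex. Its levels were 25974, 33829, 28052 and 32417 TPM in MC and 29948, 36422, 23387 and 30551 TPM in FC. In MFGR they were 28254, 19022, 21746 and 35295 TPM, and in FFGR 28142, 24891, 28392 and 37717 TPM. The 4 groups overlapped. The log2 fold change was 0.0090 in MC against FC (95% confidence interval -0.41 to 0.43, limma adjusted p = 0.974) and -0.22 in MFGR against FFGR (-0.64 to 0.21, adjusted p = 0.394).

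Among the antiporter-like subunits, ND4 was higher in control males and ND2 was lower in males of both kinds. ND4 was 29489, 32488, 30725 and 34288 TPM in MC and 16590, 25769, 20552 and 21757 TPM in FC, without overlap. It rose 1.52-fold (log2 fold change 0.60 ± 0.17 SE, limma adjusted p = 0.00874), just above the fold threshold, and the call was lost without the fourth MC library (0.56) and without the first FC library (0.49). In MFGR it was 28427, 23303, 22054 and 29987 TPM and in FFGR 21768, 15888, 23767 and 25049 TPM, which overlapped. That difference was 0.27 (95% confidence interval -0.080 to 0.63, adjusted p = 0.194).

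ND2 went the other way. It was 23530, 26035, 18067 and 20378 TPM in MC and 20096, 20022, 18066 and 20965 TPM in MFGR. In FC it was 22150, 35546, 32565 and 28803 TPM, and in FFGR 33171, 22520, 30784 and 27970 TPM. All MFGR fetuses were below all FFGR fetuses, while the first FC fetus lay within the MC range. The log2 fold change was -0.43 ± 0.16 (SE) in MC against FC (limma adjusted p = 0.0477) and -0.52 ± 0.16 in MFGR against FFGR (adjusted p = 0.0185). Both passed the adjusted p, as 43.1% and 44.9% of all tested transcripts did, but neither reached a fold of 1.5.

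ND5, the largest subunit of the membrane arm and the outermost proton channel, did not pass in either comparison. It was 7416, 9968, 11067 and 9837 TPM in MC, 7496, 5630, 5335 and 8550 TPM in MFGR, 4895, 8777, 6954 and 7201 TPM in FC and 5165, 4694, 6665 and 8594 TPM in FFGR. The highest values were in MC, and all groups overlapped. The log2 fold change was 0.48 in MC against FC (95% confidence interval -0.0011 to 0.95, limma adjusted p = 0.0990) and 0.12 in MFGR against FFGR (-0.36 to 0.59, adjusted p = 0.694).

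**Figure D2:**
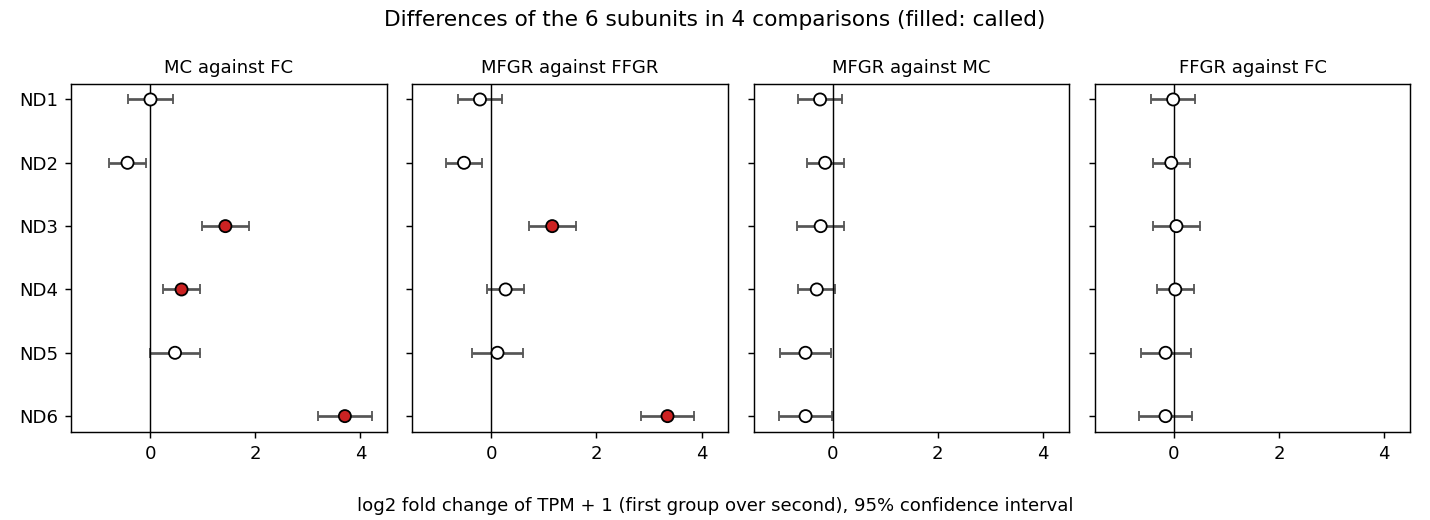
Log2 fold change of TPM + 1 with its 95% confidence interval for each subunit in 4 comparisons, positive where the first group is higher. Filled points were called, which holds for ND3, ND4 and ND6 in MC against FC and for ND3 and ND6 in MFGR against FFGR.

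The direction of the smaller differences depended on the scaling. With quantile normalization the log2 fold change of ND5 was -0.070 in MC against FC and that of ND2 was -1.11, which was then called (limma adjusted p = 0.000153). ND3 and ND6 were higher in males in both comparisons under every scaling tried, and ND3 in MFGR against FFGR fell short of its call with quantile normalization (0.56, adjusted p = 0.0382).

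A share of the summed complex I TPM is the same whatever factor a whole library is multiplied by, though quantile normalization, which moves transcripts unequally, would alter it. The shares of 5 of the 6 subunits differed by sex (exact permutation test, two-sided, sex permuted within control and within growth-restricted fetuses, 6 tests). ND6 made up 4.88% ± 0.896 of the sum in males and 0.504% ± 0.101 in females (SD, n = 8, exact p = 0.000408). ND3 made up 20.9% ± 2.72 in males and 10.1% ± 1.21 in females (exact p = 0.000408). ND4 made up 24.9% ± 1.41 and 21.9% ± 0.993 (exact p = 0.000816).

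Females held more of the sum in ND2 and ND1. ND2 made up 18.2% ± 2.23 of the sum in males and 30.0% ± 2.88 in females (SD, n = 8, exact permutation p = 0.000408). ND1 made up 24.1% ± 2.17 and 30.8% ± 3.88 (exact permutation p = 0.000408). The value of 0.000408 is the smallest this test can give. ND5 made up 6.99% ± 1.21 in males and 6.73% ± 0.908 in females (exact permutation p = 0.627). The shares of ND2, ND3 and ND6 did not overlap between the 8 male and the 8 female fetuses, while those of ND1, ND4 and ND5 did. The 6 shares add up to 100% in each fetus and are not independent of each other.

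**Figure D3:**
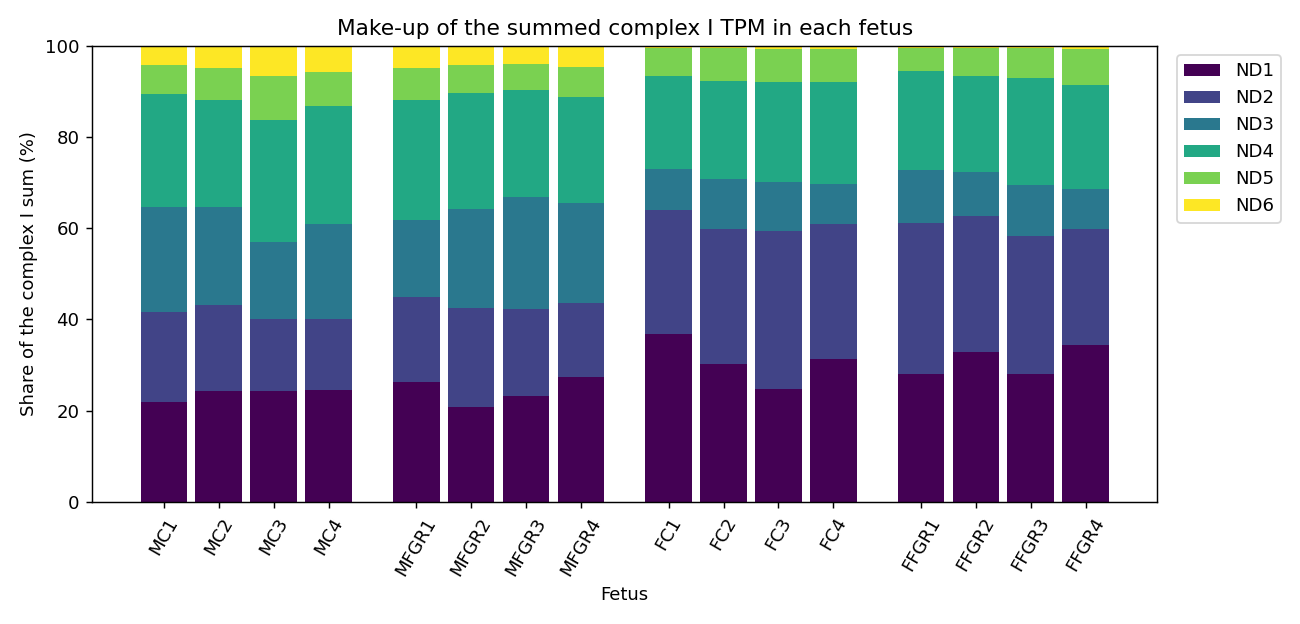
Share of each subunit in the summed complex I TPM, stacked to 100%, with 1 bar per fetus. ND3 and ND6 take up more of the bar in males, 20.9% and 4.88% on average, than in females, 10.1% and 0.504%.

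The ratio of ND6 to its neighbour ND5 differed by sex and varied little among males. ND6 was 0.678, 0.662, 0.698 and 0.753 of ND5 in MC and 0.701, 0.693, 0.695 and 0.702 in MFGR. The corresponding ratios were 0.0867, 0.0566, 0.0780 and 0.0788 in FC and 0.0681, 0.0657, 0.0832 and 0.0806 in FFGR. The coefficient of variation of the ratio was 3.74% over the 8 males, against 26.3% for ND6 and 25.4% for ND5 themselves. Over the 8 females it was 13.7%, against 25.5% for ND6 and 24.1% for ND5. Within FC the ratio varied by 17.2%, more than ND6 itself, at 12.4%. The ratio was 9.42-fold higher in males (mean of the control and growth-restricted log2 differences 3.24, exact permutation test within condition, p = 0.000408).

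**Figure D4:**
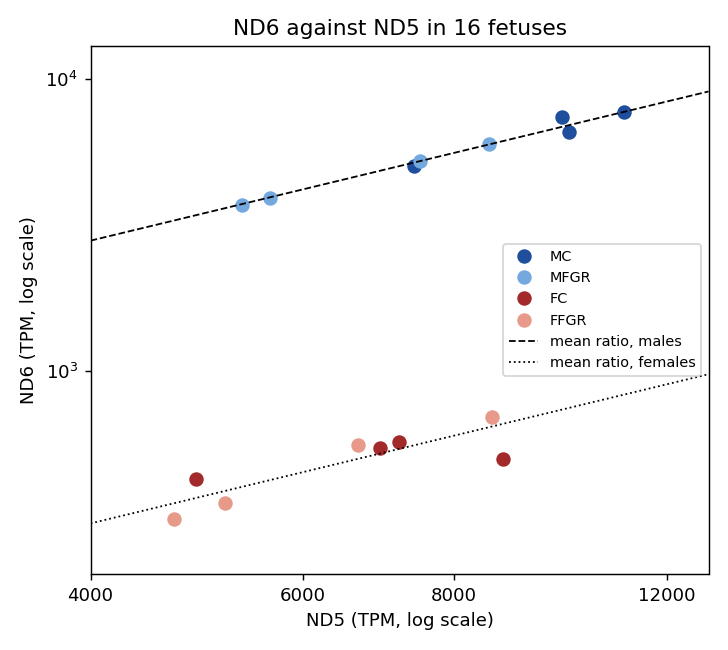
ND6 against ND5 in TPM, both on log scales, with each point 1 of 16 fetuses and the lines at the mean ratio of the 8 males (0.698) and the 8 females (0.0747). The male and female fetuses lie in 2 separate sets, the males close to their line.

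The ratio of ND3 to ND4, which are separated only by ND4L among the protein-coding genes, was 0.846 ± 0.147 in males and 0.463 ± 0.0570 in females (SD, n = 8), without overlap. It was 1.81-fold higher in males (exact permutation test within condition, p = 0.000408). The ratio of ND5 to its neighbour ND4 was 0.280 ± 0.0401 in males and 0.308 ± 0.0375 in females, and the difference did not pass (SD, n = 8, exact permutation p = 0.116). That of ND1 to ND2 was 1.35 ± 0.256 in males and 1.05 ± 0.224 in females (SD, n = 8, exact permutation p = 0.0327). Its ranges overlapped.

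The ranges of the summed complex I TPM overlapped between the sexes. The sum was 118815, 138743, 115319 and 131809 TPM in MC, and 81338, 120124, 94259 and 97292 TPM in FC. Only the second FC fetus reached into the MC range. The sum was 1.29-fold higher in MC (log2 difference 0.37, exact permutation test, two-sided, p = 0.0857, where the smallest p that 4 against 4 fetuses allow is 0.0286). Without that FC library the log2 difference was 0.47 (exact permutation p = 0.0286). In MFGR the sum was 107525, 91903, 93929 and 129191 TPM and in FFGR 100437, 75760, 101347 and 109622 TPM (log2 difference 0.13, exact permutation p = 0.543).

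The other mitochondrial messages named in the study are COX1, COX2 and COX3 of cytochrome c oxidase, CYTB of complex III and ATP6 of the ATP synthase. Between MC and FC 1 of the 5 was called higher, COX3 (log2 fold change 0.74), and 1 lower, ATP6 (-0.92), where 28.8% of all tested transcripts were called. COX1 passed without being called, with means of 84977 TPM in MC and 60660 TPM in FC, and 43.1% of all tested transcripts passed. COX2 (0.41, limma adjusted p = 0.0702) and CYTB (0.38, adjusted p = 0.105) did not pass. Without overlap between MC and FC lay 4 with MC higher and 1 with MC lower, as 37.1% of all tested transcripts did. Between MFGR and FFGR none was called higher and ATP6 was called lower (-1.08), where 30.1% of all tested transcripts were called. Of the 5, 3 passed with MFGR higher and 1 with MFGR lower, where 44.9% of all tested transcripts passed. Without overlap lay 1 with MFGR higher and 1 with MFGR lower, where 42.3% of all tested transcripts did so. The 11 mitochondrial transcripts together held 29.2% to 43.5% of the TPM of a male library and 25.4% to 38.8% of a female library. Complex I made up 32.2% ± 2.06 of these 11 in MC and 29.3% ± 1.38 in FC (SD, n = 4, exact permutation p = 0.0857). In MFGR and FFGR it made up 31.5% ± 3.27 and 30.1% ± 0.865 (exact permutation p = 0.543).

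The study also lists other transcripts of oxidative phosphorylation by their change between MC and FC. Of 9 listed as higher in MC that are not among the 11 mitochondrial transcripts, 7 were tested, and all 7 had an adjusted p under 0.05 in limma. Of 11 listed as lower, all 11 did, and of all tested transcripts 43.1% did. In MFGR against FFGR the numbers were 7 of 7 and 10 of 11, where 44.9% of all tested transcripts passed. The lists were chosen on the MC and FC libraries and are not independent evidence of their direction. Among adipose markers, the 2 transcripts of the preadipocyte surface protein THY1 pointed in opposite directions. ENSOART00020024873 was lower in MC (log2 fold change -2.21, limma adjusted p = 0.00179) and in MFGR (-2.85, adjusted p = 0.000210). For ENSOART00020024826 the log2 fold change was 1.15 in MC against FC (limma adjusted p = 0.0587) and 0.37 in MFGR against FFGR (adjusted p = 0.541). ENSOART00020036590, a transcript of the lipid droplet protein CIDEA of brown adipocytes, was lower in MFGR than in FFGR (-0.67, adjusted p = 0.00130), and FABP4 was higher (1.29, adjusted p = 0.0257). The other tested markers did not pass between MFGR and FFGR. ADIPOQ averaged 2015 TPM in MFGR and 2699 TPM in FFGR, UCP1 2211 and 2450 TPM, and leptin 24.2 and 13.2 TPM. Of 8 marker transcripts, 7 were tested. Of these, 1 passed between MC and FC, where 43.1% of all tested transcripts did, and 3 between MFGR and FFGR, where 44.9% did. The remaining marker, HOXC9, did not reach the filter on low values and so has no test result. Its level lay between 2.36 and 6.94 TPM in males and between 7.60 and 11.1 TPM in females, without overlap. The part of the markers in the differences of the subunits was not tested.

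The comparison of growth-restricted with control fetuses asked whether growth restriction changes expression within a sex. In males all 6 subunits were lower in MFGR than in MC on average, but 0 of 6 were called in limma, where 0.459% of all tested transcripts were called, 0.219% higher and 0.24% lower, and 0.525% passed. The log2 fold changes ran from -0.52 to -0.14, with a median of -0.27, and the median of all transcripts was -0.020. An unadjusted p under 0.05 was reached by 2 of the 6. These were ND5 (log2 fold change -0.52, 95% confidence interval -0.99 to -0.039, limma adjusted p = 0.249) and ND6 (-0.51, -1.02 to -0.0040, adjusted p = 0.278). The fourth MFGR fetus, at 8550 TPM of ND5, lay above the first MC fetus at 7416 TPM, so the groups overlapped. No subunit separated the 4 MFGR from the 4 MC fetuses without overlap, while 9.71% of all tested transcripts did, 5.47% with MFGR higher and 4.24% with MFGR lower.

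The remaining subunits gave narrower differences between MFGR and MC. The log2 fold change was -0.30 for ND4 (95% confidence interval -0.65 to 0.052), -0.24 for ND1 (-0.66 to 0.18), -0.23 for ND3 (-0.67 to 0.22) and -0.14 for ND2 (-0.49 to 0.21). These intervals leave room for a decrease of ND1, ND3 and ND4 by over 1.5-fold. The summed TPM was 1.20-fold lower in MFGR (log2 difference -0.27, exact permutation test, two-sided, p = 0.114). Without the fourth MFGR library, in which each of the 6 subunits was at its highest in the group, the log2 difference was -0.37 (exact permutation p = 0.0286).

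In females 0 of 6 subunits were called between FFGR and FC in limma, as were 0% of all tested transcripts, and 0 of 6 had an unadjusted p under 0.05. The log2 fold changes ran from -0.16 for ND6 to 0.048 for ND3. The 95% confidence intervals were -0.44 to 0.41 for ND1, -0.40 to 0.30 for ND2, -0.40 to 0.49 for ND3 and -0.33 to 0.38 for ND4. They were -0.63 to 0.32 for ND5 and -0.67 to 0.35 for ND6. The summed TPM gave a log2 difference of -0.021 (exact permutation p = 0.914). No subunit separated FFGR from FC without overlap, where 3.85% of all tested transcripts did, 0.962% with FFGR higher and 2.89% with FFGR lower. Over all tested transcripts 337 had an unadjusted p under 0.05.

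No subunit passed a test that growth restriction acted differently in the 2 sexes. In the interaction of sex and growth restriction 0 of 6 were called in limma, as were 0% of all tested transcripts, and 0 of 6 had an unadjusted p under 0.05. The interaction estimates ran from -0.36 for ND5 (95% confidence interval -1.03 to 0.32) to -0.092 for ND2 (-0.59 to 0.41). The make-up of the sum was not detectably moved by growth restriction either. Of 12 exact permutation tests of a share, 6 in each sex, 0 gave a p under 0.05, and the smallest p was 0.114 for ND5 in males (6.35% ± 0.565 for MFGR against 7.62% ± 1.42 for MC, SD, n = 4). For the ND6 to ND5 ratio the SD was 0.0044 over the 4 MFGR and 0.0397 over the 4 MC fetuses, and the log2 ratio differed by 0.0020 (exact permutation p = 0.971). In females the log2 ratio differed by -0.0017 between FFGR and FC (exact permutation p = 1.0).

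Fetuses of the same group that were high in a given subunit tended to be high in others. The fourth MFGR fetus was the highest of its group in all 6 subunits, and the second FFGR fetus was the lowest of its group in all 6. In FC the second fetus was the highest in 5 of 6 subunits and the first was the lowest in 5. In MC no fetus held such a place, and the highest values were spread over 3 fetuses. After the mean of each group was taken from its log2 values, the 15 pairs of subunits correlated over the 16 fetuses with a median Pearson r of 0.634, from 0.159 to 0.892. Of the 15, 8 passed a permutation test within groups at an adjusted p under 0.05 over 17 relations. All points share the total of their library, and TPM of abundant messages are not free of each other.

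Of the 3 pairs with the highest r, 2 were neighbours on the mitochondrial genome. ND1 and ND2 are neighbours too, but their r was 0.229 (permutation test, adjusted p = 0.463). This depended on the scaling, since after median-of-ratios scaling the r of ND1 and ND2 was 0.529 and passed (permutation test, adjusted p = 0.0472). For ND5 and ND6 Pearson's r was 0.892 (permutation test, adjusted p = 0.00312) and Spearman's rho 0.868 (adjusted p = 0.00459). Without the 2 fetuses farthest from the median of ND5 r was 0.890. It was 0.984 over the 8 males and 0.838 over the 8 females. For every pair the 2 farthest fetuses were chosen by the measure named first alone. For ND4 and ND5 r was 0.879 (adjusted p = 0.00312), rho 0.871 (adjusted p = 0.00459) and r without the 2 farthest fetuses 0.843. For ND2 and ND3, which are not neighbours, r was 0.825 (adjusted p = 0.00312), rho 0.832 (adjusted p = 0.00459) and r without the 2 farthest fetuses 0.737. It was 0.597 over the males and 0.956 over the females.

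Further pairs passed the permutation test. For ND4 and ND6 r was 0.763 (adjusted p = 0.0106), for ND1 and ND5 0.715 (adjusted p = 0.0267) and for ND1 and ND4 0.706 (adjusted p = 0.0299). For ND1 and ND6 r was 0.634 (adjusted p = 0.0326) but rho 0.585 (adjusted p = 0.0777). The pairs with ND1 no longer passed without some single libraries. Some pairs were loosely tied. For ND3 and ND6 r was 0.159 (permutation test, adjusted p = 0.599), with rho 0.109 (adjusted p = 0.776), and 0.0610 without the 2 farthest fetuses. For ND2 and ND6 r was 0.183 (adjusted p = 0.599), with rho 0.0618 (adjusted p = 0.833), and turned to -0.236 without the 2 farthest fetuses. For ND2 and ND4 r was 0.672 (adjusted p = 0.0326) but rho 0.538 (adjusted p = 0.0944), and r was 0.351 without the first FC and the second FFGR fetus, so this relation rests on those fetuses.

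**Figure D5:**
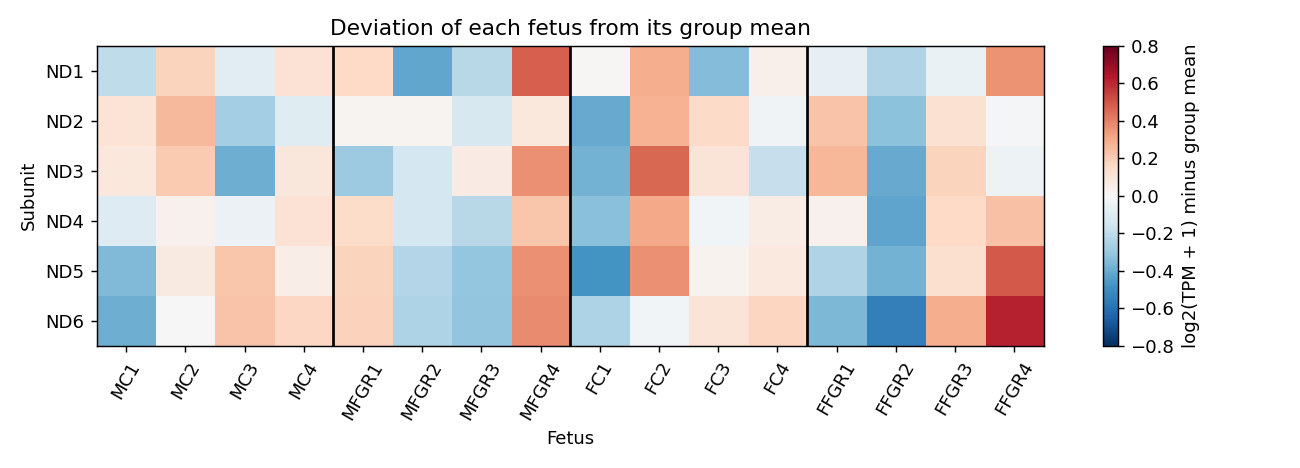
Deviation of each fetus from the mean of its group, as log2(TPM + 1), with subunits in rows and fetuses in columns. The fourth MFGR column is above its group mean in all 6 rows and the second FFGR column is below it in all 6.

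The complex I sum followed the sum of the 5 other mitochondrial transcripts within groups, with r = 0.757 (permutation test, adjusted p = 0.0187), rho 0.744 (adjusted p = 0.0202) and 0.633 without the 2 farthest fetuses. The r was 0.476 over the males and 0.942 over the females. The relation no longer passed without the second FC library (r = 0.721, adjusted p = 0.0531) or without the second FFGR library (r = 0.648, adjusted p = 0.0793). With the level of UCP1 the complex I sum gave r = 0.156 (permutation test, adjusted p = 0.599), rho 0.174 (adjusted p = 0.641) and 0.351 without the 2 farthest fetuses.

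Over the 16 libraries, group differences included, the transcripts outside the 11 whose pattern was most like that of ND6 were ENSOART00020000715, with a Pearson r of 0.983, and ENSOART00020024752, with an r of 0.979, among 4563 searched. The former is on the study's list of oxidative phosphorylation transcripts higher in MC and averaged 165 TPM in males and 49.2 TPM in females. The latter averaged 16.1 TPM in males and was listed at 0 in all females, so it passed the filter through male libraries alone. Both were chosen for their likeness to ND6 with the sex difference included. That both were higher in males follows from this choice and is not a separate result. For the sum of ND1 to ND5 the closest was ENSOART00020035658, with an r of 0.744.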

How the data were processed

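RNA of 16 perirenal adipose samples was sequenced from Swift RNA libraries on a NextSeq500. Read quality was checked by the authors with FastQC 0.11.9, reads of low quality were discarded, and the rest were quantified with Salmon against Ensembl transcripts of Oar_rambouillet_v1.0. The Salmon version and its library type are not given in the sources used here. The authors deposited the values as TPM for 35219 transcripts, 1 column per fetus.

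Here log2(TPM + 1) was fitted under R 4.3.3 with limma 3.58.1, letting the prior variance follow the mean level, with 1 mean per group and no covariate. The 4574 transcripts fitted reached 20 TPM in 3 or more libraries. Adjusted p-values are Benjamini-Hochberg over all of them. Sums, shares and ratios were tested by exact permutation, and correlations of group-centred values by 100000 permutations within groups. The fit was tried on simulated data with independent noise and changes planted in MFGR, for MFGR against MC only. That trial did not cover the fixed sum of TPM or the male to female comparisons. Names were taken from the study, since no reference used here pairs these identifiers with genes. The transcripts named are the 6 subunits, the 5 other mitochondrial transcripts, 8 adipose markers and the transcripts closest in pattern to ND6 and to the sum of ND1 to ND5. The transcript printed for both CIDEA-202 and TCF21 was left out. The subunits, lists and tests were chosen with earlier results of these data known.

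Alternatives were another pseudocount, filter, scaling, variance model, weights, sample set, replicate block and fold threshold, and leaving out each library.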

Additional observations from a re-analysis of the deposited data

Results flagged for a closer look

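Of 72 sets of 4 fetuses checked for a fetus far from the others, over the 6 subunits, their sum, its percent of the mitochondrial transcripts, the 6 shares and 4 ratios, 2 were flagged. Chance flags about 1 in 20 such sets. The share of ND1 in the complex I sum was 21.9% in the first MC fetus, while the others of its group lay closely together. The share of ND5 was 6.02% in the first FC fetus, again below a close set of 3.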

How the results depend on the processing

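Over the alternatives run, 2 to 4 subunits were called between MC and FC, 2 or 3 between MFGR and FFGR, and 0 in the other comparisons. ND6 in both male to female comparisons and ND3 between MC and FC kept their direction and call in each. The call of ND4 between MC and FC was also lost with no filter (adjusted p = 0.348) and with quantile normalization (log2 fold change 0.35), while ND5 was called there after median-of-ratios scaling (0.68, adjusted p = 0.0432). ND2 was called lower in MFGR than in FFGR with quantile normalization (-0.91), with library weights (-0.61) and without the second FFGR library (-0.63). The cause was not tested.

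With median-of-ratios scaling the log2 difference of the complex I sum between FFGR and FC was 0.0040 and that of ND1 0.011. Quantile normalization turned ND1 (-0.32) and ND5 (-0.070) between MC and FC, ND5 between MFGR and FFGR (-0.11), ND2 between MFGR and MC (0.23), ND2 in the interaction (0.20), and ND1 (0.018), ND2 (0.030), ND3 (-0.026) and ND4 (-0.095) between FFGR and FC. Library weights turned ND1 between MC and FC (-0.012), ND5 between MFGR and FFGR (-0.044) and ND2 between FFGR and FC (0.048).

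Leaving out each library in turn gave a log2 difference of the sum from 0.28 to 0.47 for MC against FC, from -0.37 to -0.20 for MFGR against MC and from -0.11 to 0.092 for FFGR against FC, where it turned without the second FC or the second FFGR library. The share of ND5 differed between the sexes by -0.0764 to 0.486 points, and turned without the third MC library. Of the 15 pairs of subunits 4 to 9 passed, with 4 without the fourth MFGR library, 5 without the second FC library and 4 without the second FFGR library, against 12 of 15 after median-of-ratios scaling. The r of ND2 and ND6 ran from -0.0806 to 0.330 and that of ND3 and ND6 from -0.0836 to 0.281. ND1 ran from -0.11 to 0.11 between MC and FC, and ND5 from -0.0086 to 0.28 between MFGR and FFGR. Between FFGR and FC the ranges were -0.13 to 0.084 for ND1, -0.18 to 0.060 for ND2, -0.079 to 0.20 for ND3, -0.084 to 0.17 for ND4 and -0.36 to 0.024 for ND6. ND2 ran from -0.20 to 0.043 in the interaction.

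The 24 pairs of libraries that share a replicate number correlated with a median r of 0.026, from -0.214 to 0.271, after group means were taken out. Of these 24, 6 were over 0.1. The 72 pairs with different numbers had a median r of -0.0026, from -0.294 to 0.297, and 11 were over 0.1. The numbers were not taken to pair the fetuses, and a replicate block was run as an alternative. With the replicate block 3, 2, 0, 0 and 0 subunits were called in the 5 comparisons, and the calls over all transcripts between MFGR and MC were 3 higher and 4 lower in place of 10 and 11. ND2 between MC and FC then no longer passed (adjusted p = 0.0819).

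Over all transcripts a filter at 1 TPM gave 934 higher and 2172 lower calls between MC and FC and 849 and 2805 between MFGR and FFGR. No filter gave 779 and 1962, and 757 and 2549. Between MFGR and MC library weights gave 86 and 66. TPM keeps no read counts, so the counting error of each value could not be set, and exact tests of 4 against 4 fetuses cannot give a p below 0.0286.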
